A study of Mus musculus with 4 samples.

Results

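The genes described here are those of peroxide and superoxide removal, glutathione metabolism, metal binding and iron storage in hair cell (HC) progenitors of the neonatal mouse cochlea. They were taken by symbol, as all *Gpx*, *Sod*, *Prdx*, *Gst* (classes alpha, mu, pi, theta, kappa, omega and zeta), *Txn*, *Txnrd* and *Mt1* to *Mt3* genes of the deposited table together with *Cat*, *Gclc*, *Gclm*, *Gsr*, *Gss*, *Nqo1*, *Hmox1*, *Hmox2*, *Ftl1* and *Fth1*. This gave 56 of the 23997 genes, by name and not by value. Of the 56, 49 reached an FPKM (fragments counted on a gene, divided by its transcript length and by the depth of the sample) of at least 1 in at least 1 population and were kept, as were 13436 genes of the whole table.

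Lgr5+ progenitors were EGFP+ cells sorted by flow cytometry from cochleae of Lgr5-EGFP-IRES-creERT2 mice, and Lgr6+ progenitors were EGFP+ cells sorted likewise from Lgr6-EGFP-IRES-CreERT2 mice. Both lines are listed as C57BL/6, and cochleae were taken at postnatal day (P)3, with the reporter under the control of the *Lgr5* or the *Lgr6* gene. The labels list 2 libraries per population, whereas the methods describe RNA of each population that was split into fractions, so the libraries may share an extraction. Of the sorting genes, *Lgr6* stood at 2.06 in the Lgr5+ sample and 2.90 in the Lgr6+ sample, and *Lgr5* at 9.65 and 25.0, the higher value in the sample labelled Lgr6+. Lgr6+ cells of the cochlea are known as a subset of the Lgr5+ cells. The names below are those of the labels. The table holds 1 combined FPKM value per population, so the spread between replicates is unknown, no difference below has a replicate check and no *p*-value is given. In RNA of many cells, fewer cells of a type cannot be told apart from less RNA per cell.

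Reactive oxygen species are removed in steps. Superoxide dismutases turn superoxide into hydrogen peroxide, which catalase, glutathione peroxidases and peroxiredoxins remove. The peroxidases and peroxiredoxins, unlike catalase, do so at the expense of glutathione or thioredoxin. Glutathione S-transferases attach glutathione to electrophiles, metallothioneins bind zinc and copper through their many cysteines, and ferritin stores iron in a form that cannot drive radical chemistry. In the cochlea these systems are studied mainly because HCs are damaged by noise and by ototoxic drugs, both of which raise oxidative stress.

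Differences are given on the log2(FPKM + 1) scale as Lgr6+ minus Lgr5+, so a positive value is higher in Lgr6+ progenitors, and the added 1 understates the difference of low genes. A gene was counted as apart when this difference reached 1.5-fold. By this measure 28.5% of the kept genes lay higher in Lgr6+ progenitors and 23.3% in Lgr5+ progenitors. Of the 49 kept genes of the set, 16 (32.7%) were higher in Lgr6+ progenitors, 11 (22.4%) were higher in Lgr5+ progenitors and 22 were under 1.5-fold. The share that was apart in either direction was 55.1%, against a background of 51.8%, so with this filter the counts of the set were near those of all genes. With an FPKM of at least 1 required in both populations, 32.6% of the set lay higher in Lgr6+ progenitors, against 21.4% of all such genes. For Lgr5+ progenitors these shares were 19.6% and 22.5%. With both samples scaled to the same sum of FPKM, 37.2% and 16.5% of all kept genes and 19 and 9 genes of the set were apart. The median difference as deposited was 0.08, against 0.03 over all kept genes. The metallothioneins, *Fth1*, *Gstm7* and *Hmox2* were higher in Lgr6+ progenitors, and *Sod1*, *Gpx3*, *Gstm4* and *Hmox1* were higher in Lgr5+ progenitors.

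**Figure D1:**
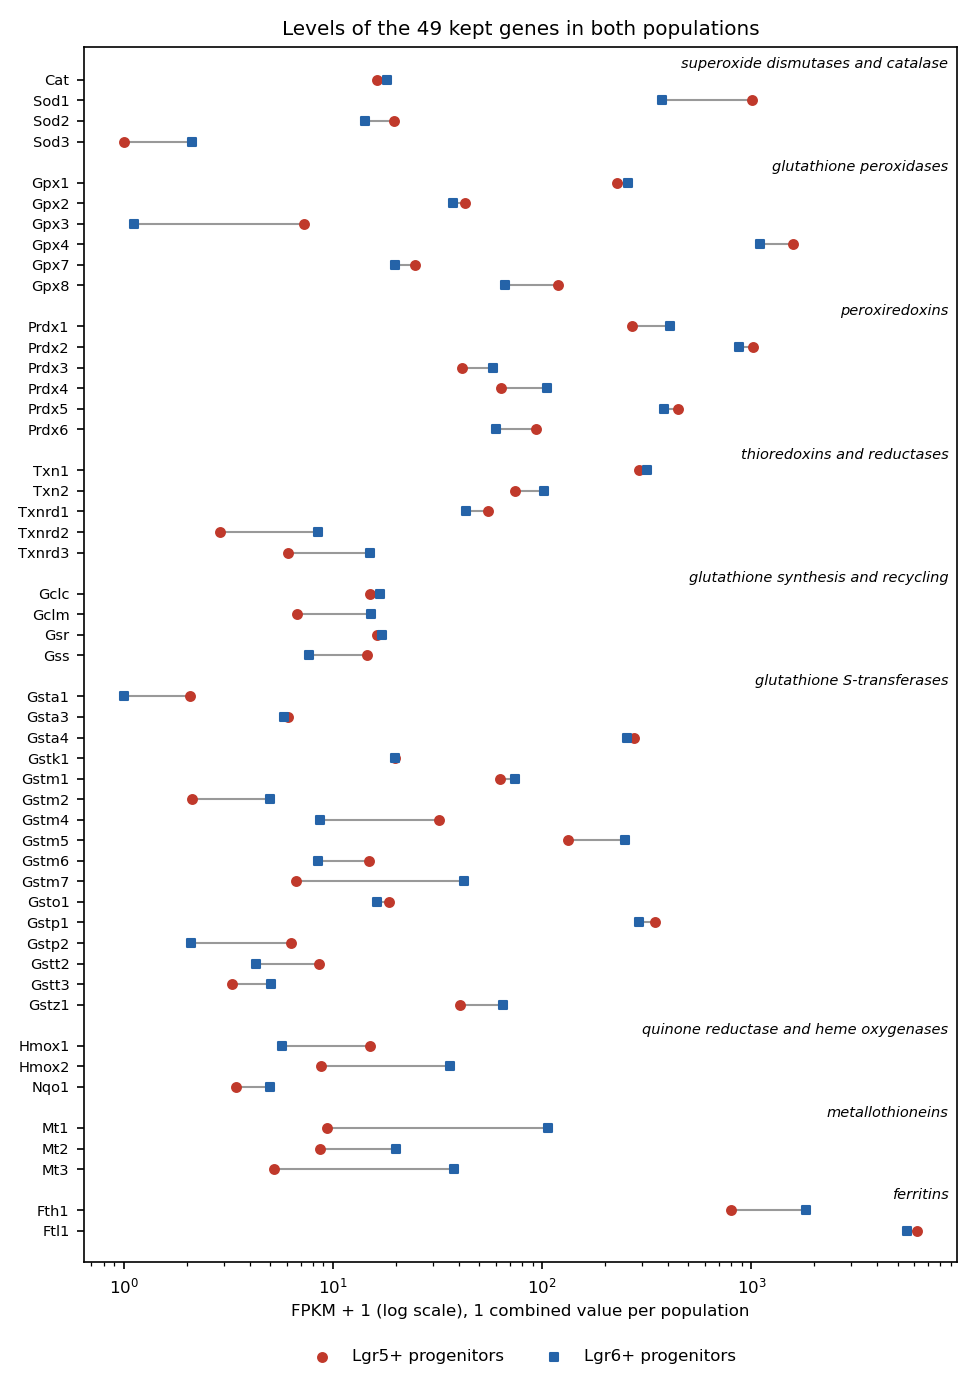
FPKM + 1 on a log axis for the 49 kept genes, by family, with a red circle for the combined value of Lgr5+ progenitors and a blue square for that of Lgr6+ progenitors. The longest lines are those of *Mt1* (8.41 and 105.4), *Mt3* (4.20 and 36.8), *Gpx3* (6.28 and 0.121) and *Gstm7* (5.66 and 41.2), while *Ftl1* is far to the right in both populations.

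The 56 genes together accounted for 1.78% of all FPKM in the Lgr5+ sample and 2.05% in the Lgr6+ sample. The highest gene was *Ftl1*, whose FPKM was 6203 and 5532. It ranked number 5 of all genes in the Lgr5+ and number 1 in the Lgr6+ sample. The FPKM summed over the set came to 13436 (Lgr5+) and 12881 (Lgr6+), a ratio of 0.959, while the sum over all genes had a ratio of 0.833. Of these sums, 7004 and 7349 came from the 2 ferritins, so the shares and the ratio of the set rest largely on them.

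The spread of differences narrowed with level in the whole table, so shares are also given for genes of like abundance, with level taken as the geometric mean of FPKM + 1, less 1. Among the 991 genes of level 100 and above, 6.66% were higher in Lgr6+ progenitors and 28.7% in Lgr5+ progenitors by this measure, together 35.3%. Of the 12 genes of the set at this level, *Fth1*, *Gstm5* and *Prdx1* were higher in Lgr6+ progenitors and *Sod1* was higher in Lgr5+ progenitors. Between levels 10 and 100 the background was 19.4% and 22.5%, together 41.9%, and 7 and 4 of 23 genes of the set passed. Between levels 1 and 10 it was 34.7% and 22.7%, together 57.4%, and 5 and 5 of 12 genes passed. *Sod3* and *Gsta1*, the remaining kept genes, had levels under 1.

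**Figure D2:**
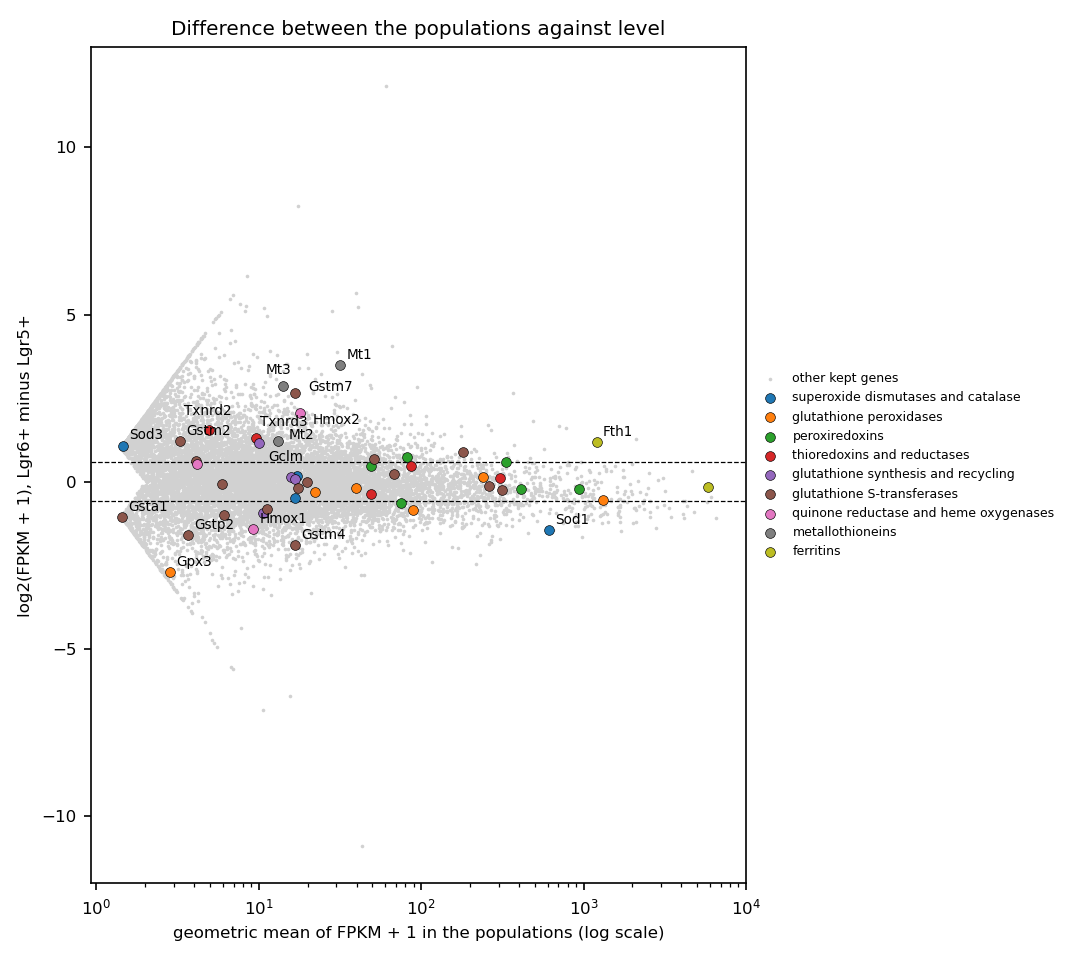
Difference in log2(FPKM + 1), Lgr6+ minus Lgr5+, on the vertical axis against the geometric mean of FPKM + 1 on a log axis, for all 13436 kept genes (grey) and the 49 genes of the set (coloured by family), with dashed lines at 1.5-fold. The grey cloud narrows to the right, where *Fth1* lies above the upper line and *Sod1* below the lower one.

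The metallothioneins were the family with the largest difference. *Mt1* and *Mt2* encode the widely expressed, metal-inducible isoforms, and *Mt3* the isoform best known from the nervous system. *Mt1* (chromosome 8, 94179088 to 94180327, GRCm38, as for all genes below) had an FPKM of 8.41 in the Lgr5+ and 105.4 in the Lgr6+ sample, a ratio of 12.5 and a difference of 3.50. Only 83 of the 13436 kept genes, and 13 of the 5474 of level 10 to 100, had a larger difference in this direction. *Mt3* had 4.20 and 36.8, a difference of 2.86, and *Mt2* had 7.66 and 19.1, a difference of 1.21. All 3 genes were thus higher in Lgr6+ progenitors, against 28.5% of all kept genes and 19.4% of those of level 10 to 100, and their order differed, since *Mt2* was close to *Mt1* in Lgr5+ progenitors and the lowest of the 3 in Lgr6+ progenitors.

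The 3 genes lie side by side on chromosome 8, and their transcripts are short, from 538 to 631 bases. Low FPKM values in the table fell on steps. For genes with 1 long transcript, the product of FPKM and kilobases (transcript length less 200 bases) lay within 2% of 0.129 for 76 low values in Lgr5+ progenitors, against 4 at 1.5 steps, and within 2% of 0.0403 for 32 in Lgr6+ progenitors, against 6 at 1.5 steps, so the steps were less clear in Lgr6+ progenitors. These steps belong to the combined values, and whether 1 step is 1 fragment is not known. In these steps *Mt1* had 28.1 in the Lgr5+ and 1129 in the Lgr6+ sample, *Mt2* had 21.2 and 169, and *Mt3* had 11.02 and 309. The step itself is larger in Lgr5+ progenitors, so a gene of equal FPKM lies fewer steps above 0 there. Of the Lgr5+ values of these genes, that of *Mt3* lay the fewest steps above 0. The steps were found on long transcripts, whereas these are short.

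Transcription of *Mt1* and *Mt2* is known to be driven by zinc through Mtf1, which binds metal response elements (MREs). The promoters are shown because the 3 genes differed in the same direction. They run from 250 bases before to 50 after a start taken from RefSeq (GRCm38.p6, forward strand), at chr8:94178839-94179138 for *Mt1*, chr8:94172368-94172667 for *Mt2* and chr8:94152357-94152656 for *Mt3*. Capitals mark the MRE core, TGCACNC or TGCGCNC, on either strand.
Mt1 promoter: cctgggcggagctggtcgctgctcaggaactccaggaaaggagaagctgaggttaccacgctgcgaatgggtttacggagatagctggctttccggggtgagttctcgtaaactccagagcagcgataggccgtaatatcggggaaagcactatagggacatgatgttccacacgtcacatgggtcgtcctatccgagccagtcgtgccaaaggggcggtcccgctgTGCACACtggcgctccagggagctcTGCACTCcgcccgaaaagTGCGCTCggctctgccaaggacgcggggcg
Mt2 promoter: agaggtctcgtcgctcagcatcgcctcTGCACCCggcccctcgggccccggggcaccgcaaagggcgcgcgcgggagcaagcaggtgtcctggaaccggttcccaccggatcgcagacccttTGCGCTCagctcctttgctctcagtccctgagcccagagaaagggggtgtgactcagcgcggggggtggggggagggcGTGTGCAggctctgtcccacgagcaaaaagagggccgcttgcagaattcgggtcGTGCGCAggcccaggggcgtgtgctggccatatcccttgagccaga
Mt3 promoter: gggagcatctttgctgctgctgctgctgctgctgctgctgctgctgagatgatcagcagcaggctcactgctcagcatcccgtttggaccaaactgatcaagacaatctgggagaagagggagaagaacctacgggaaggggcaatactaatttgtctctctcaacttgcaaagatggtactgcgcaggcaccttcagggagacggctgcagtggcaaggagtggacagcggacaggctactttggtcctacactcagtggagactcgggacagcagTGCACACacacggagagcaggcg

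The *Mt1* window held 3 cores on the forward strand, 1 of them before the start used for the window, the *Mt2* window held 4, of which 2 were on the reverse strand, and the *Mt3* window held 1, after that start. The RefSeq gene interval of *Mt1* begins farther upstream, at 94178883, and all 3 cores lie within it. Each of these genes had 1 window, and sequence beyond its 50 bases after the start was not searched. The counts and places of cores therefore hold for this window and start only. A core was found in 25.7% of 32851 RefSeq promoter windows of the same length, and 3 or more in 1.97%. Of the 49 genes of the set with such a window, 17 (34.7%) held a core in at least 1 window, 3 of which were not kept. This share counts genes and the background counts single windows, so they cannot be compared directly. Of the 14 kept genes with a core, 8 (57.1%) were higher in Lgr6+ progenitors, the 3 metallothioneins among them, and of the 28 kept genes with a window and no core, 7 (25.0%) were. The 3 metallothioneins prompted this search, so the split is not independent of them. The share higher in Lgr6+ progenitors among all kept genes with a core was not computed, and this split was not tested. A match of letters is a description and not a site. *Mtf1* itself had an FPKM of 3.93 in the Lgr5+ and 5.46 in the Lgr6+ sample, a difference of 0.39, and *Slc30a1*, a zinc exporter that is also a target of Mtf1, had 1.82 and 3.42, a difference of 0.65. *Mt4*, the squamous epithelial isoform, was listed at 0 in both.

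Of the 15 copper, zinc and metallothionein genes on the wider list, 12 were kept, 5 lay at least 1.5-fold higher in Lgr6+ progenitors and 1 in Lgr5+ progenitors, with a median of 0.46. The shares of all kept genes, 28.5% and 23.3%, are the background here and for each list below. The copper chaperones were abundant and level between the populations. *Atox1*, which carries copper to the ATPases of the secretory pathway, had an FPKM of 1277 and 1272, and *Ccs*, which loads copper into Sod1, had 106.6 and 106.5. *Cox17*, the mitochondrial copper chaperone, had 873 and 734, a difference of -0.25. The copper importer *Slc31a1* had 2.78 and 12.3, a difference of 1.82. The largest difference on the list was that of *Cp*, a copper-carrying ferroxidase, with 0.0149 and 5.60 and a difference of 2.70. *Atp7a*, a copper-exporting ATPase, had 7.44 and 3.42, a difference of -0.93.

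The ferritins differed from each other. *Fth1*, the heavy chain with the ferroxidase centre (chromosome 19, 9980599 to 9985111), had an FPKM of 801 in the Lgr5+ and 1818 in the Lgr6+ sample, a ratio of 2.27 and a difference of 1.18. Only 16 of the 991 genes of level 100 and above had a larger difference. *Ftl1*, the light chain (chromosome 7, 45457943 to 45459886), had 6203 and 5532, a difference of -0.17 that was 0.50 after quantile normalization and 0.10 with the samples scaled to the same sum. The light chain was thus the more abundant in both populations, and only the heavy chain was 1.5-fold apart between them.

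Translation of both chains is known to be held back by iron regulatory proteins, which bind a stem and loop in the 5′ leader of the mRNA. The loops are shown because the transcripts share this element while only *Fth1* was 1.5-fold apart. Capitals mark the loop letters CAGTG in the GENCODE M1 transcripts, in bases 32 to 56 of *Fth1* and bases 80 to 104 of *Ftl1*.
Fth1 leader: cctgcttcaaCAGTGcttgaacgga
Ftl1 leader: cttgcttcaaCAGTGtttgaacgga

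A bulged C, a stem of 5 pairs and this loop were found in the initial 200 bases of 28 of 22611 protein-coding genes (0.124%), and these were the only members of the set among them. Of the *Ftl1* transcript, 94.3% of 100-base windows matched another place in the mouse genome with at least 98 bases, against 7.79% for *Fth1*. *Ftl1* reads could therefore be shared with copies elsewhere, and its FPKM is uncertain to that extent.

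Of 19 further genes of iron handling, 15 were kept, 5 lay at least 1.5-fold higher in Lgr6+ progenitors and 2 in Lgr5+ progenitors. *Pcbp1*, which delivers iron to ferritin, had an FPKM of 177 and 192, and *Iscu*, the scaffold of iron-sulphur clusters, had 202 and 191. *Trf*, the iron carrier transferrin, had 0.362 and 10.8, a difference of 3.11, the largest on the list. *Tfrc*, the transferrin receptor, had 5.68 and 12.2, a difference of 0.98. *Heph*, a ferroxidase that works with iron export, had 4.28 and 1.03, a difference of -1.38. *Ftmt*, the mitochondrial ferritin, and *Hamp*, which encodes hepcidin, were listed at 0 in both populations.

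*Sod1*, the copper and zinc superoxide dismutase of the cytosol (chromosome 16, 90220741 to 90226324), had an FPKM of 1008 in the Lgr5+ and 373 in the Lgr6+ sample. The Lgr5+ value was 2.70 times the Lgr6+ value, a difference of -1.43, and only 19 of the 991 genes of level 100 and above had a lower one. Of its 100-base windows 56.4% matched another place in the genome, so copies elsewhere may share its reads. *Sod2*, the manganese enzyme of mitochondria, had 18.7 and 13.2, a difference of -0.47. *Sod3*, the secreted enzyme, was listed at 0 in the Lgr5+ sample and had 1.12 in the Lgr6+ sample, which corresponds to 93.8 steps. *Cat*, the peroxisomal catalase, had 15.1 and 17.1, a difference of 0.16. The cytosolic enzyme therefore exceeded the others in both populations, and its level differed most among the 3 that were measured in both.

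Of the 8 glutathione peroxidases, 6 were kept, none was 1.5-fold higher in Lgr6+ progenitors, 2 were so in Lgr5+ progenitors, against 28.5% and 23.3% of all kept genes, and the median was -0.42. *Gpx4*, which reduces lipid hydroperoxides in membranes, was the most abundant, with an FPKM of 1572 in the Lgr5+ and 1091 in the Lgr6+ sample, a difference of -0.53. Its interval in the table runs from 79697304 to 80369637 on chromosome 10 and is shared with 47 other genes, and 71.1% of its windows matched another place in the genome. *Gpx1*, the general cytosolic enzyme, had 228 and 255, a difference of 0.16. *Gpx2*, the epithelial enzyme, had 41.5 and 36.3, and 43.3% of its windows matched elsewhere.

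*Gpx8*, an enzyme of the endoplasmic reticulum, had an FPKM of 118 and 65.2, a difference of -0.85, and shares its interval with *Cdc20b* and 3 microRNA genes. *Gpx7*, of the same compartment, had an FPKM of 23.6 and 18.8, a difference of -0.31. *Gpx3*, the secreted enzyme of plasma (chromosome 11, 54902853 to 54910382), had 6.28 in the Lgr5+ and 0.121 in the Lgr6+ sample, a difference of -2.70, and 78 kept genes, 70 of them among the 5984 of level 1 to 10, had a lower one. These values correspond to 68.0 and 4.19 steps, so its Lgr6+ value lies few steps above 0. *Gpx5*, of the epididymis, was listed at 0 and 0.0263, and *Gpx6*, of the olfactory epithelium, at 0 in both.

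The peroxiredoxins were all kept, with 2 at least 1.5-fold higher in Lgr6+ progenitors, 1 in Lgr5+ progenitors and 3 under that fold. *Prdx2*, of the cytosol, was the highest with an FPKM of 1013 and 874, a difference of -0.21. *Prdx1*, also of the cytosol, had 268 and 409, a difference of 0.61, which lies just over the threshold of 1.5-fold, and 20.5% of its windows matched elsewhere. *Prdx1* shares its interval in the table with *AV051173*. *Prdx4*, of the endoplasmic reticulum (chromosome X, 155323919 to 155338454), had 62.2 and 104.2, a difference of 0.73. *Prdx6*, which uses glutathione and also has phospholipase activity, had 92.4 and 59.04, a difference of -0.64, just past the threshold in the other direction. *Prdx3*, of mitochondria, had 40.5 and 57.2, and *Prdx5* had 447 and 382, both under 1.5-fold.

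Thioredoxins return peroxiredoxins to the reduced form and are themselves reduced by thioredoxin reductases with NADPH. *Txn1*, the cytosolic thioredoxin, had an FPKM of 290.5 and 317, a difference of 0.12, and its reductase *Txnrd1* had 54.1 and 42.3, a difference of -0.35. The mitochondrial thioredoxin *Txn2* had 72.8 and 101.2, a difference of 0.47, and its reductase *Txnrd2* had 1.88 and 7.48, a difference of 1.56. *Txnrd3*, the reductase best known from testis, had 5.10 and 14.03, a difference of 1.30. The cytosolic pair thus stayed under 1.5-fold, and the reductases with the lower levels passed it. *Txnrd2* shares its interval in the table with *Arvcf*.

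Among 12 partners of the thioredoxin system, 11 were kept, 3 were higher in Lgr6+ progenitors and 2 in Lgr5+ progenitors. *Txndc17*, a thioredoxin-like protein, had an FPKM of 77.8 and 97.7, and *Txndc5*, a disulphide isomerase, had 91.5 and 66.0. *Msra*, which repairs oxidized methionine, had 8.88 and 34.0, a difference of 1.82, and *Sesn2*, a stress-induced regulator, had 1.48 and 0.181, a difference of -1.07.

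For glutathione itself, the enzymes of synthesis differed in both directions. Glutamate-cysteine ligase makes the rate-limiting step, and its catalytic subunit *Gclc* had an FPKM of 14.05 and 15.8, a difference of 0.16. The modifier subunit *Gclm* (chromosome 3, 122245556 to 122267215) had 5.72 and 14.2, a difference of 1.17. *Gss*, which completes the tripeptide, had 13.5 and 6.67, a difference of -0.92, and *Gsr*, which reduces the oxidized form, had 15.2 and 16.2, a difference of 0.08. The subunits of the ligase thus stood at 14.05 and 5.72 in Lgr5+ progenitors and at 15.8 and 14.2 in Lgr6+ progenitors.

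In the list of cystine uptake, glutathione turnover and glutaredoxins, 15 of 18 genes were kept, 4 were higher in Lgr6+ progenitors and 2 in Lgr5+ progenitors, with a median of -0.19. *Slc7a11*, the cystine importer that feeds glutathione synthesis, had an FPKM of 0.185 and 4.03, a difference of 2.09. Its partner *Slc3a2* had 57.7 and 50.4. *Glrx5* and *Glrx3*, glutaredoxins of iron-sulphur cluster handling, stood at 280 and 255 (*Glrx5*) and at 219 and 174 (*Glrx3*). *Abcc4*, an exporter of organic anions, had 2.22 and 0.117, a difference of -1.53.

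The NADPH that these reductases use comes in part from the pentose phosphate pathway. The list of NADPH supply also holds genes outside that pathway. All 9 of its genes were kept, with 1 higher in Lgr6+ progenitors, 3 higher in Lgr5+ progenitors and a median of -0.27. *G6pdx*, the entry enzyme, had an FPKM of 9.04 and 19.7, a difference of 1.05. *Pgls*, the next enzyme, had 429 and 191, and *Tkt*, a transketolase, had 57.6 and 14.4, with differences of -1.16 and -1.93. *Taldo1*, a transaldolase, had 268 and 199, a difference of -0.43.

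The glutathione S-transferases were the largest family, with 21 genes, of which 16 were kept, 5 were higher in each population and 6 were under 1.5-fold. *Gstp1*, the pi-class enzyme, on chromosome 19, had the highest FPKM in both populations, 344 and 290, a difference of -0.25. *Gsta4*, which conjugates the lipid peroxidation product 4-hydroxynonenal, had 273 and 252, a difference of -0.12. *Gstp2* had 5.33 and 1.11, but 98.5% of its windows matched another place in the genome and 56.9% were present in a *Gstp1* transcript, so reads of the pair may have been divided between them. In the alpha class, 82.1% of *Gsta1* windows were present in transcripts of *Gsta2* or related genes. *Gsta1* had 1.07 and was listed at 0 in Lgr6+ progenitors, and *Gsta2* was listed at 0 in both.

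The mu class forms a cluster on chromosome 3 from 107877229 to 108044859, in the order *Gstm5*, *Gstm7*, *Gstm6*, *Gstm3*, *Gstm2*, *Gstm1* and *Gstm4*. Neighbours in the cluster differed in opposite directions. *Gstm5* had an FPKM of 131 and 248, a difference of 0.91. *Gstm7* had 5.66 and 41.2, a ratio of 7.28 and a difference of 2.66, and only 241 of the kept genes, and 31 of the 5474 of level 10 to 100, had a larger one. *Gstm6*, beside it, had 13.9 and 7.47, a difference of -0.81.

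At the other end of the cluster, *Gstm1*, the main liver isoform, had an FPKM of 61.7 and 72.8, a difference of 0.23. *Gstm4* had 31.0 and 7.68, so the Lgr5+ value was 4.04 times the Lgr6+ value, a difference of -1.88. *Gstm2* had 1.12 and 3.97, a difference of 1.23, and *Gstm3* was listed at 0 in both populations. No window of *Gstm4*, *Gstm5*, *Gstm6* or *Gstm7* matched the genome outside the gene with at least 98 of 100 bases, whereas 45.4% of *Gstm1* windows and 69.1% of *Gstm2* windows did. Of the *Gstm6* windows, 2.78% were present in a *Gstm3* transcript. *Gstm5* shares its interval in the table with *Eps8l3* and *4933431E20Rik*.

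**Figure D3:**
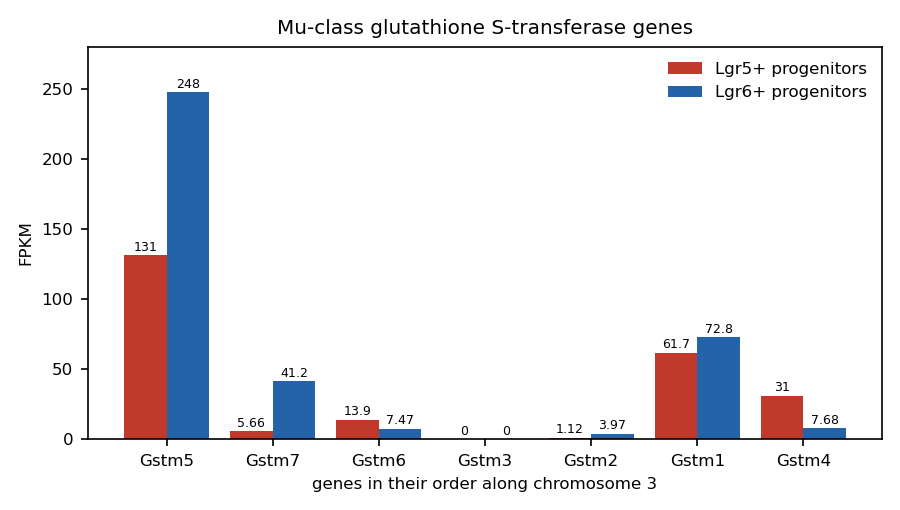
FPKM of the 7 mu-class genes in their order along chromosome 3, with red bars for Lgr5+ progenitors, blue bars for Lgr6+ progenitors and the value above each bar; there is 1 combined value per bar and no error. *Gstm5* and *Gstm7* are higher in Lgr6+ progenitors, and *Gstm6* and *Gstm4* are higher in Lgr5+ progenitors.

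Of the remaining transferases, *Gstz1*, an enzyme of tyrosine breakdown, had an FPKM of 39.4 and 64.2, a difference of 0.69, and shares its interval in the table with *Pomt2*. *Gstk1* had 18.8 in both populations, and *Gsto1*, of the omega class, had 17.5 and 15.3, a difference of -0.18. In the theta class, *Gstt2* had 7.57 and 3.30, and *Gstt3* had 2.29 and 4.07, a difference of 0.62. *Gsta3* had 5.12 and 4.81. *Gstt1* was listed at 0 in Lgr5+ progenitors and at 0.861 in Lgr6+ progenitors, and *Gsto2* and *Gstt4* were listed at 0 in both.

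Among 7 membrane and prostaglandin enzymes that use glutathione, 6 were kept, 3 were higher in the Lgr6+ sample and 1 in the Lgr5+ sample. *Mgst3* had an FPKM of 959 and 1218, a difference of 0.34. *Clic1*, a glutathione transferase-like channel protein, had 119.8 and 84.7, a difference of -0.50. *Mgst1*, of mitochondria and endoplasmic reticulum, had 106.5 and 67.2, a difference of -0.66. *Hpgds*, a prostaglandin D synthase of the transferase family, had 0.0645 and 2.61, a difference of 1.76.

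The heme oxygenases differed in opposite directions. *Hmox1*, the stress-inducible enzyme that degrades heme (chromosome 8, 75093617 to 75100593), had an FPKM of 14.04 in the Lgr5+ and 4.69 in the Lgr6+ sample, a ratio of Lgr5+ to Lgr6+ of 2.99 and a difference of -1.40. *Hmox2*, the constitutive enzyme, had 7.80 and 35.3, a difference of 2.05, and shares its interval in the table with *Cdip1*. *Nqo1*, a quinone reductase, had 2.44 and 4.02, a difference of 0.54, just under the threshold.

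*Hmox1*, *Nqo1*, *Gclm*, *Prdx1*, *Txnrd1* and several transferases are known targets of the transcription factor Nrf2, encoded by *Nfe2l2*, which binds antioxidant response elements. The letters TGACNNNGC, on either strand, were found in at least 1 promoter window of 8 of 49 genes of the set (16.3%). They were found in 12.4% of all 32851 windows, a share of windows and not of genes, so these shares cannot be compared directly. The 8 genes were *Gclm*, *Gsta3*, *Gstm5*, *Gstm7*, *Mt2*, *Prdx1*, *Sod1* and *Txnrd1*, of which 5 (62.5%) were higher in Lgr6+ progenitors, against 10 of the 34 other kept genes with a window (29.4%). The same share over all kept genes with these letters was not computed, and this split was not tested either. The match in *Mt2* did not overlap its MRE cores. *Gclc*, *Gsr*, *Gsta4*, *Gstt2*, *Hmox1*, *Prdx6* and *Sod3* had no window in the table used here.

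Among 11 genes of Nrf2 control, all were kept, 2 were higher in Lgr6+ progenitors and 3 in Lgr5+ progenitors, with a median of -0.29. *Nfe2l2* had an FPKM of 7.60 and 6.14, a difference of -0.27, and its inhibitor *Keap1* had 22.7 and 17.4, a difference of -0.36. *Rbx1*, a subunit of the ubiquitin ligase that Keap1 serves, had 212 and 173. *Maff*, a small Maf partner, had 6.35 and 1.08, a difference of -1.82. *Bach2*, a repressor at the same elements, had 6.16 in Lgr6+ progenitors against 2.55, a difference of 1.01. Over the 7 pathway lists, 79 of 91 genes were kept, 23 were higher in Lgr6+ progenitors and 14 in Lgr5+ progenitors, with a median of 0.00. These are 29.1% and 17.7%, against 28.5% and 23.3% of all kept genes.

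**Figure D4:**
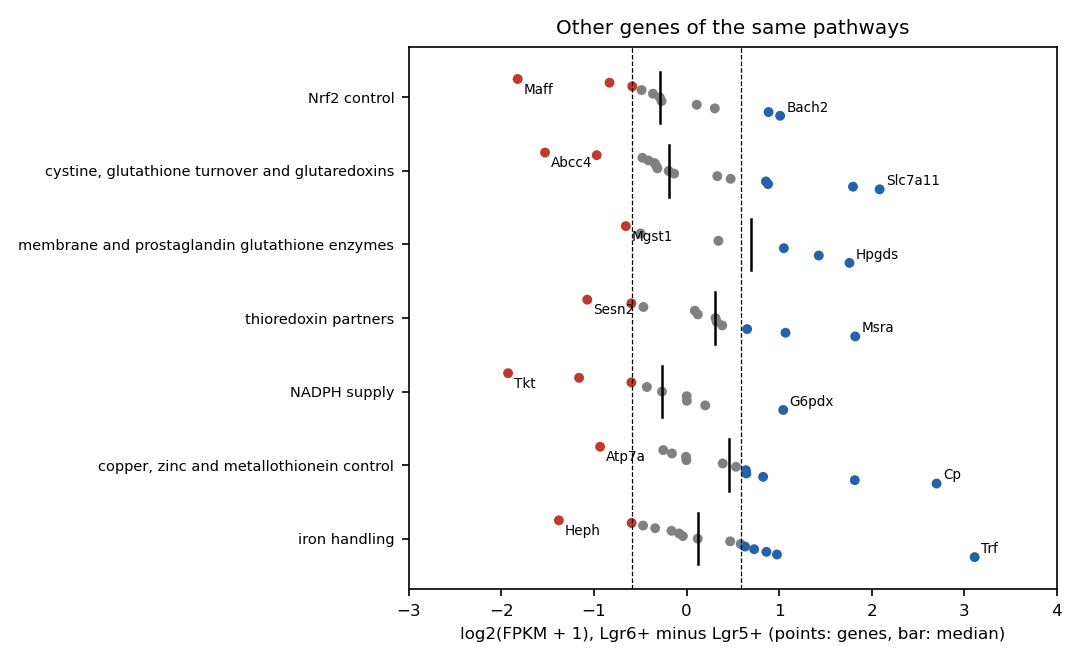
Difference in log2(FPKM + 1), Lgr6+ minus Lgr5+, for the 79 kept genes of the 7 pathway lists, with blue points at least 1.5-fold higher in Lgr6+ progenitors, red points at least 1.5-fold higher in Lgr5+ progenitors, a black bar at each median and dashed lines at 1.5-fold. *Trf*, *Cp* and *Slc7a11* lie farthest to the right, and *Tkt* and *Maff* farthest to the left.

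The sorted populations also differed in markers of other cells, and these values stand beside the results above. Of 14 supporting cell and progenitor markers all were kept, 1 higher in Lgr6+ and 3 higher in Lgr5+ progenitors, with a median of -0.36. Their sum was 4680 FPKM in the Lgr5+ and 4158 in the Lgr6+ sample. *S100a1* (2959 and 3177) was the highest in both, *Hes5* (505 and 91.7) was next in the Lgr5+ sample and *Tecta* (406 and 271) in the Lgr6+ sample. *Hes5* had the lowest difference on the list, -2.45. Of 14 macrophage markers, 13 were in the table and 11 were kept, all 11 higher in Lgr6+ progenitors, and the sum was 5.16 and 286. *C1qb*, *C1qc*, *Tyrobp*, *Csf1r* and *Aif1* were listed at 0 in Lgr5+ progenitors, as was *Ptprc*, which was near 0 (0.00814) in Lgr6+ progenitors too. Macrophages are known to be rich in ferritin and *Hmox1*.

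Of 8 Schwann cell and glial markers, 5 were kept and 4 were higher in Lgr6+ progenitors, with a sum of 480.2 and 1582, most of it from *Fabp7* (446 and 1370). *Pmp22* had 0.784 and 64.5, while *Foxd3* and *Cdh19* were each listed at 0 in 1 population and at no more than 0.147 in the other. Endothelial markers summed to 19.3 and 104.1, with 8 of 9 higher in Lgr6+ progenitors and *Kdr* listed at 0 in Lgr5+ progenitors. The remaining marker, *Tie1* (2.09 and 0.999), was higher in Lgr5+ progenitors. Markers of fibrocytes and mesenchyme summed to 334 and 886, with 6 of 11 higher in Lgr6+ progenitors, led by *Igfbp7* (4.59 and 277.3), and *Lum* (179 and 101) higher in Lgr5+ progenitors. Markers of HCs summed to 735 and 1076, with 6 of 8 higher in Lgr6+ progenitors. The part of these cells in the levels of the metallothioneins, *Fth1*, *Trf*, *Cp* and *Hpgds* was not tested.

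In the other direction, erythroid markers summed to 946 and 413, with 8 of 9 in the table. Of the 6 kept, 4 were higher in Lgr5+ progenitors, among them *Hba-a2* at 142 and 0.712. *Hbb-b1* was near level at 316 and 305, a difference of -0.05. *Alas2* had 4.36 and 6.64, a difference of 0.51 toward Lgr6+ progenitors that was under 1.5-fold. *Slc4a1*, which was not kept, was listed at 0 in Lgr6+ progenitors. Red cells are rich in *Prdx2*, *Cat*, *Gpx1* and *Sod1*, and of these *Sod1* was higher in Lgr5+ progenitors by 1.5-fold or more. Markers of dissociation and stress summed to 1948 and 1295, with none of the 7 kept higher in Lgr6+ progenitors and 4 higher in Lgr5+ progenitors, among them *Fosb* (146 and 66.4). Neuronal and melanocyte sums were instead higher in Lgr6+ progenitors, with single markers in both directions. Neuronal markers summed to 84.9 and 116. Of the 6 kept, 2 were higher in Lgr6+ progenitors, led by *Snap25* (7.63 and 53.4), and 1 in Lgr5+ progenitors, *Tubb3* (1.18 and 0.0959). *Prph* was listed at 0 in Lgr5+ progenitors. Melanocyte markers summed to 1.68 and 3.97, with *Pmel* (0.318 and 3.03) higher in Lgr6+ and *Mitf* (1.18 and 0.121) higher in Lgr5+ progenitors. *Tyrp1* and *Mlana* were listed at 0 in both. The part of these cells and of the stress of dissociation in the levels of *Sod1* and *Hmox1* was not tested.

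**Figure D5:**
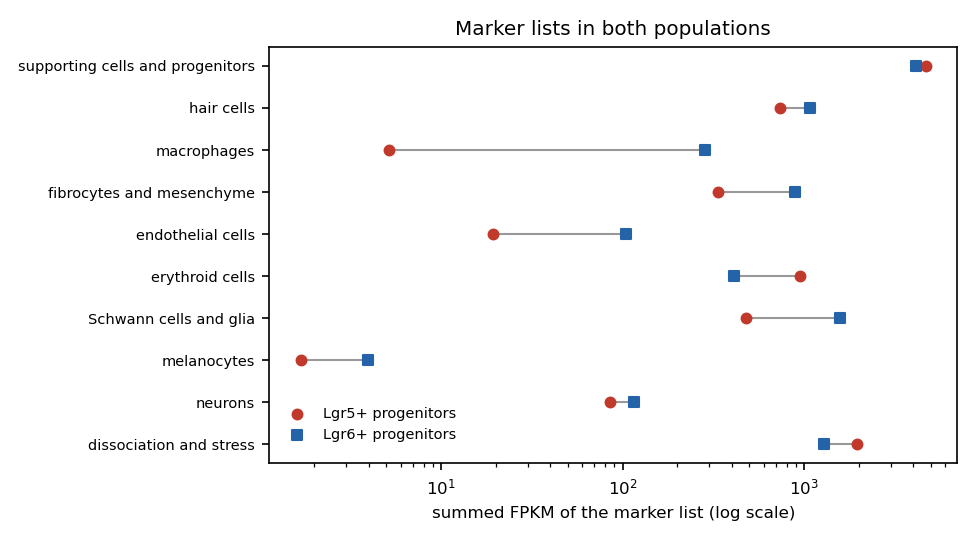
Summed FPKM of each marker list on a log axis, with a red circle for Lgr5+ progenitors and a blue square for Lgr6+ progenitors. The widest gap is that of the macrophage markers (5.16 and 286), and the supporting cell markers are the highest in both populations.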

How the data were processed

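RNA of sorted Lgr5+ and Lgr6+ progenitors was amplified from low input (SMART-Seq v4) and sequenced by the authors in paired-end mode, 2 labelled libraries per population. Per the labels, reads were processed with Trimmomatic, TopHat and Cufflinks on mm10, while the methods name mm9. Of 19655 symbols, 99.1% of the table's intervals overlapped the gene in GRCm38.p6 and 12.8% in NCBIM37, so positions are read as GRCm38. The FPKM values were deposited as 1 combined value per population, with no counts, so the depth of single libraries is unknown. The authors' own fold changes, *p*-values and *q*-values in the table were not used.

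Differences were taken on log2(FPKM + 1), for genes whose FPKM was 1 or more in either population, against a threshold of 1.5-fold. Every gene of the set was named. Of the other lists, genes were named for the highest levels or the largest difference in each direction, and *Mtf1*, *Slc30a1*, *Slc31a1*, *Ccs*, *Tfrc*, *Nfe2l2*, *Keap1*, *Slc3a2*, *Mt4*, *Ftmt*, *Hamp*, *Lgr6* and markers listed at 0 for their role or after their values were seen. The set and all lists were chosen with earlier results of these data known. Promoters and gene intervals came from RefSeq and transcripts from GENCODE M1. Windows of 100 bases, taken every 10 bases of the longest transcript, were mapped to the NCBIM37 genome with minimap2 2.31. The counting was tested on simulated data. Python 3.11.15, numpy 2.4.6 and pandas 2.3.3 were used.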

Additional observations from a re-analysis of the deposited data

How the results depend on the processing

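Each difference rests on 1 combined value per population, so neither a replicate nor a library could be left out. No paired analysis was possible because the table holds no value of single libraries. These alternatives were therefore not run. Across pseudocount, filter and scaling settings, 24 of the 27 genes of the set that were 1.5-fold apart stayed so wherever a value could be had, and none of the 27 turned in direction. A filter leaves a difference as it is, and a smaller pseudocount can only widen it. Only the scalings could therefore bring a gene under 1.5-fold, and the other settings are no check of this. The exceptions were *Prdx6* and *Gstt3* after quantile normalization (-0.53 and 0.37) and *Prdx6* and *Gstm6* after scaling to the same sum (-0.38 and -0.58). *Nqo1*, *Prdx3* and *Txn2* passed 1.5-fold after scaling to the same sum (0.76, 0.75 and 0.73), and *Nqo1* also with a smaller pseudocount or none (0.70 and 0.72). Of the genes under 1.5-fold, 8 had the other sign after scaling to the same sum, 5 of them also after quantile normalization (*Prdx2*, *Prdx5*, *Gsta4*, *Gstp1* and *Ftl1*, at most 0.50), and *Gpx4* moved from -0.53 to -0.064 after the latter. The numbers higher in Lgr6+ and in Lgr5+ progenitors were 11 and 6 at 2-fold. For the pathway lists they were 12 and 6 at 2-fold, and 31 and 8 after scaling to the same sum. That scaling moved the median of all kept genes to 0.27 and that of the set to 0.33. With a minimum FPKM of 5 the median of the set was -0.036.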
